A study of Mus musculus with 5 samples.

Results

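The heat shock and unfolded protein response genes are a module of 34 genes, taken by symbol from the 18307 genes of the RefSeq gene count table. They comprise 12 cytosolic chaperones, 3 mitochondrial chaperones, 18 endoplasmic reticulum (ER) stress genes and Hsf1, a transcription factor of the heat shock response. The ER stress genes divide into 10 ER chaperones and folding or degradation factors, 5 transcription factors and 3 targets of the integrated stress response. The RNA came from heart ventricles of CD-1 mouse embryos at embryonic day (E) 10.5, CD-1 being an outbred strain. In the caffeine group (n = 3 libraries), pregnant dams had been injected daily with caffeine at 20 mg/kg from E6.5 to E9.5. In the vehicle group (n = 2 libraries), dams of the same strain had received 0.9% NaCl on the same days. Caffeine is an adenosine receptor antagonist, and the embryos met it only through the dam. Per the labels' protocols, ventricles of littermates were combined and 1 pool was taken as 1 sample, so a library averages over embryos and the number of embryos per pool is not given in the sources used here.

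Chaperones bind unfolded stretches of other proteins and help them fold, and cells raise their synthesis when unfolded proteins build up. In the cytosol that response runs through HSF1, which binds heat shock elements in chaperone promoters. In the ER it runs through the sensors IRE1, PERK and ATF6, whose effectors XBP1, ATF4 and ATF6 raise ER chaperones, degradation factors and amino acid genes. PERK shares its arm, the integrated stress response, with kinases that sense amino acid shortage, heme shortage and double-stranded RNA. Heart muscle is known for its small heat shock proteins, which guard contractile filaments.

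None of the 34 genes passed edgeR's quasi-likelihood test with Benjamini-Hochberg (BH) adjustment at a false discovery rate (FDR) of 0.05. The smallest BH-adjusted p was 0.851, for Hsp90aa1. Of 13829 genes tested over the whole table, 1 passed (0.00723%). All 34 module genes had enough counts to be tested. Below the threshold, 7 of the 34 (20.6%) had an unadjusted p under 0.05, against 5.2% of all tested genes. The 3 higher in caffeine libraries were Hspa1a, Hsf1 and Atf4 (3.13% of all tested genes were higher at that level), and the 4 lower were Hsp90aa1, Hspd1, Hspe1 and Hsp90b1 (2.07% of all tested genes). Counts per 1000000 (CPM) of the caffeine and vehicle libraries did not overlap for 10 of the 34 genes (29.4%), against 20.4% of all tested genes. Of these, 4 lay above vehicle (11.2% of all tested genes did) and 6 lay below it (9.27% of all tested genes). These members were not drawn independently of each other and were chosen with earlier results of these data known, so the shares are a description.

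The 3 classes differed in where their members lay. Of the 12 cytosolic chaperones 9 had a negative log2 fold change, with a median of -0.10 and a range from -0.40 to 0.76. All 3 mitochondrial chaperones were negative, with a median of -0.37. The 18 ER stress genes were divided, 8 negative and 10 positive, with a median of 0.03. Over all tested genes 47% were negative and the median was 0.01. No test was made between the classes. The cytosolic median was -0.04 without caffeine replicate 1 and -0.16 without vehicle replicate 2. The mitochondrial median was -0.24 without caffeine replicate 1 and -0.21 without vehicle replicate 1. It was -0.51 without caffeine replicate 2 and -0.45 without vehicle replicate 2. The ER stress median was between -0.11 and 0.03 when single libraries were left out, and was negative without caffeine replicate 2, caffeine replicate 3 or vehicle replicate 2.

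**Figure D1:**
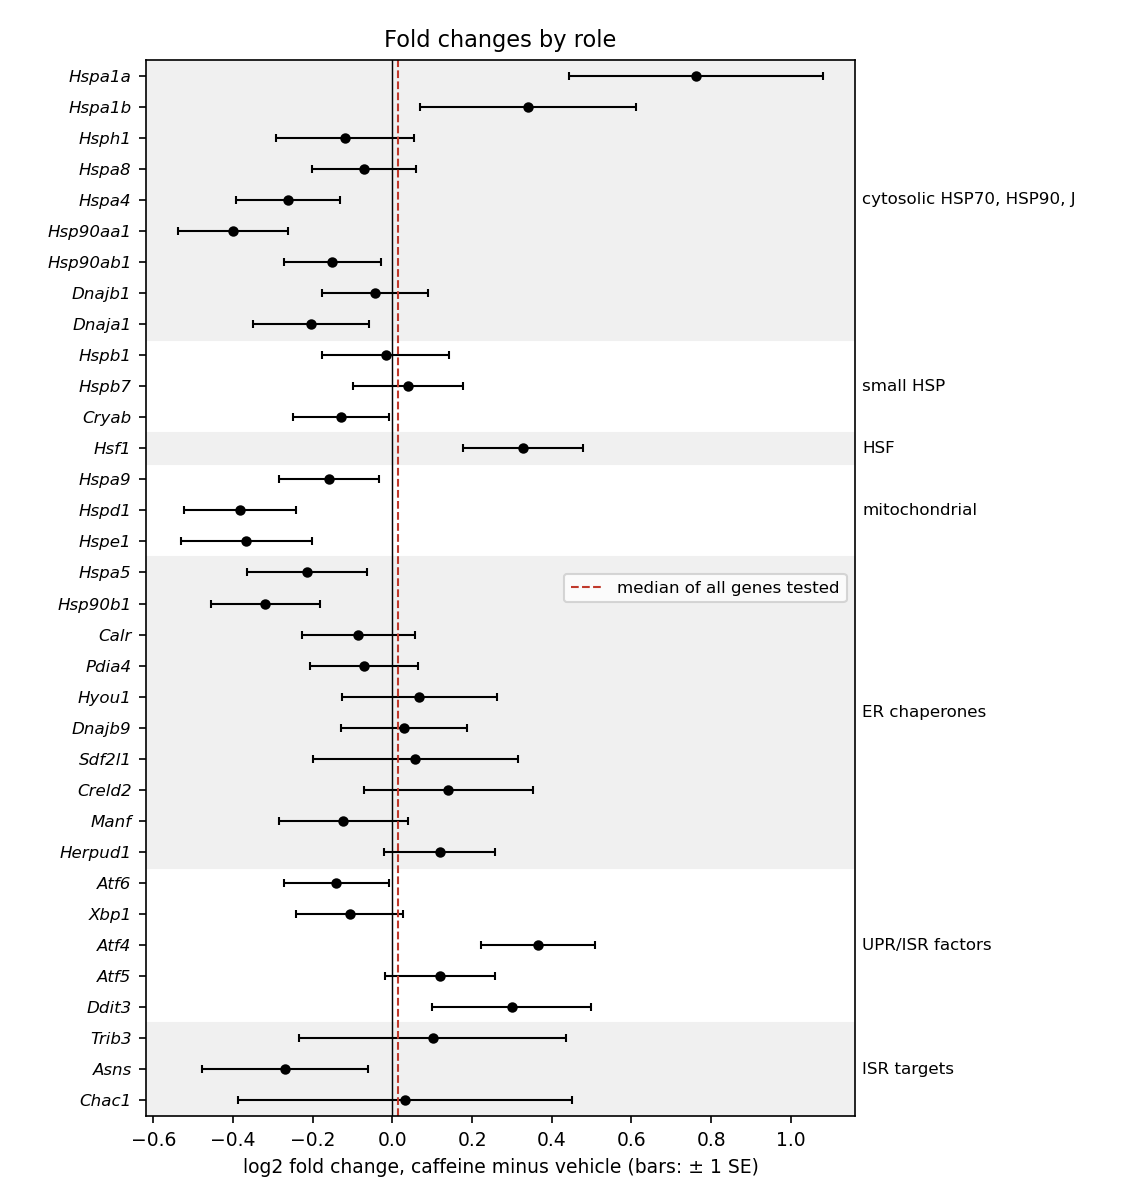
Log2 fold change of each of the 34 genes, caffeine minus vehicle, with bars of ± 1 standard error, grouped by role from top to bottom. The dashed line is the median of all tested genes at 0.01, and Hsp90aa1 at -0.40 and Hspa1a at 0.76 are the ends of the range.

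Library totals were between 21713381 and 25048134 estimated counts, and the 34 genes took 1.46%, 1.71% and 1.62% of them in caffeine replicates 1, 2 and 3, against 1.74% and 1.67% in vehicle replicates 1 and 2. The 95% Wilson interval of the lowest share ran from 1.456% to 1.465%, which covers counting error only. Genes of heart muscle (Myh7, Myl2, Tnnt2, Irx4 and 6 others) were present at a summed 35168, 34722 and 33964 CPM in caffeine libraries, against 41343 and 37588 CPM in vehicle libraries. With no atrial genes set beside them, these are markers of heart muscle in the labelled tissue. Their sum, which rests on the abundant sarcomere genes, was lower in all 3 caffeine libraries, but 7 of the 10 markers had a negative log2 fold change and 3 a positive one (Nppa 0.12, Irx4 0.13 and Nkx2-5 0.13), and ranges lay wholly below vehicle for 3 (Myh7, Myh6 and Myl2). None of the 10 passed FDR 0.05. In bulk tissue, fewer cells of a type and less RNA per cell cannot be told apart. Genes of other cell types also differed between pools. The 10 hepatic endoderm genes, of which 7 were tested, summed to 65.7, 37.9 and 15.3 CPM in caffeine libraries, against 22.1 and 159 CPM in vehicle libraries. All 7 tested had negative log2 fold changes (median -1.41), with overlapping groups for each gene. The 9 erythroid genes summed to 8468, 6498 and 10246.5 CPM in caffeine libraries, against 10719 and 6174 CPM in vehicle libraries. Their log2 fold changes were positive for 8 and negative for 1 (median 0.11), with overlapping groups for each gene. The 6 macrophage genes, of which 4 were tested, summed to 55.2, 46.3 and 39.0 CPM in caffeine libraries and 38.8 and 35.3 CPM in vehicle libraries. Lyz2 alone had 48.0, 43.5 and 35.2 CPM in caffeine libraries and 36.3 and 32.2 CPM in vehicle libraries. All 4 tested had positive log2 fold changes (median 0.79), with overlapping groups for each gene. The 5 epicardial genes summed to 490.3, 404 and 337 CPM in caffeine libraries and 337 and 382 CPM in vehicle libraries, with all 5 log2 fold changes positive (median 0.18). The 8 endothelial and endocardial genes summed to 1534, 1328 and 1350 CPM in caffeine libraries and 1475 and 1586 CPM in vehicle libraries, with 7 of the 8 negative (median -0.11). The part of any of these cell types in the module's values was not tested.

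Caffeine replicate 1 stood low for the module. It had the lowest CPM of the 5 libraries for 20 of the 34 genes (58.8%), against 22.8% of all tested genes. That held for 7 of the 12 cytosolic chaperones, all 3 mitochondrial chaperones and 8 of the 10 ER chaperones, and for 1 of the 5 ER stress transcription factors. Without it, 17 of the 34 genes were negative, with a median of -0.01, against 20 and a median of -0.07 with it.

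**Figure D2:**
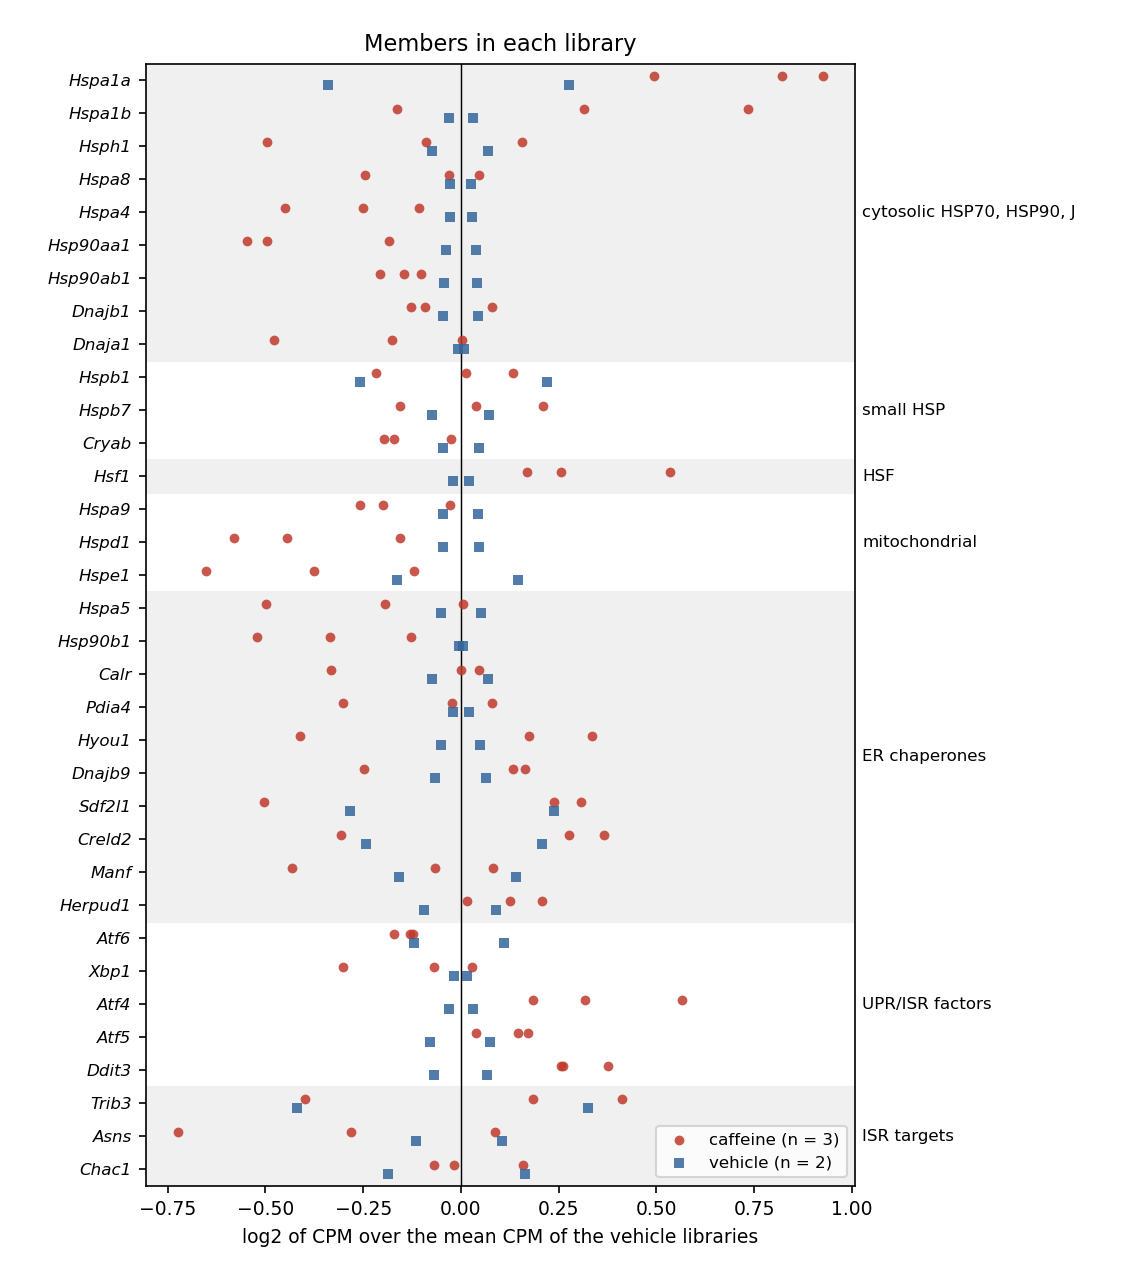
CPM of each gene in each library, as the log2 of its ratio to the mean of the vehicle libraries, with caffeine libraries as circles (n = 3) and vehicle libraries as squares (n = 2). Hspa1a, Hsf1, Atf4 and Ddit3 have all circles to the right of both squares; Hspa4, Hsp90aa1, Hsp90ab1, Hspd1, Hsp90b1 and Atf6 have all circles to the left.

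Levels between genes can be compared only per transcript length. CPM were therefore divided by the length in kilobases of the longest GENCODE transcript matched to each gene's most abundant RefSeq transcript. By that measure the cytosolic HSP90 Hsp90ab1 was the most abundant member, at 1334 ± 48.3 CPM per kilobase in caffeine libraries and 1481 ± 62.0 in vehicle libraries (SD, n = 3 and n = 2). Hspa8, the constitutive HSP70, followed at 1024 ± 104 in caffeine libraries and 1076 ± 28.5 in vehicle libraries, a place that holds for the RefSeq counts and not for the authors' Ensembl table, where it had 16.5% of them. The heat-inducible HSP70 genes were among the 4 lowest: Hspa1b had 2.00 ± 0.608 CPM per kilobase in caffeine libraries and 1.58 ± 0.0464 in vehicle libraries, and Hspa1a had 0.922 ± 0.139 in caffeine libraries and 0.545 ± 0.162 in vehicle libraries. By RefSeq counts, constitutive and inducible HSP70 thus stood far apart in both groups. Of the ER genes, the calcium-binding lectin chaperone Calr led at 630 ± 86.8 CPM per kilobase in caffeine libraries and 669 ± 46.7 in vehicle libraries, ahead of Hspa5 (BiP) at 518 ± 89.0 in caffeine libraries and 601 ± 30.2 in vehicle libraries. The ranges of these neighbours overlapped in caffeine libraries and not in vehicle libraries. The pro-apoptotic transcription factor gene Ddit3 (CHOP) had 8.24 ± 0.390 CPM per kilobase in caffeine libraries and 6.70 ± 0.441 in vehicle libraries. Chac1, a glutathione-degrading enzyme, was lowest at 0.380 ± 0.0321 in caffeine libraries and 0.372 ± 0.0638 in vehicle libraries.

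**Figure D3:**
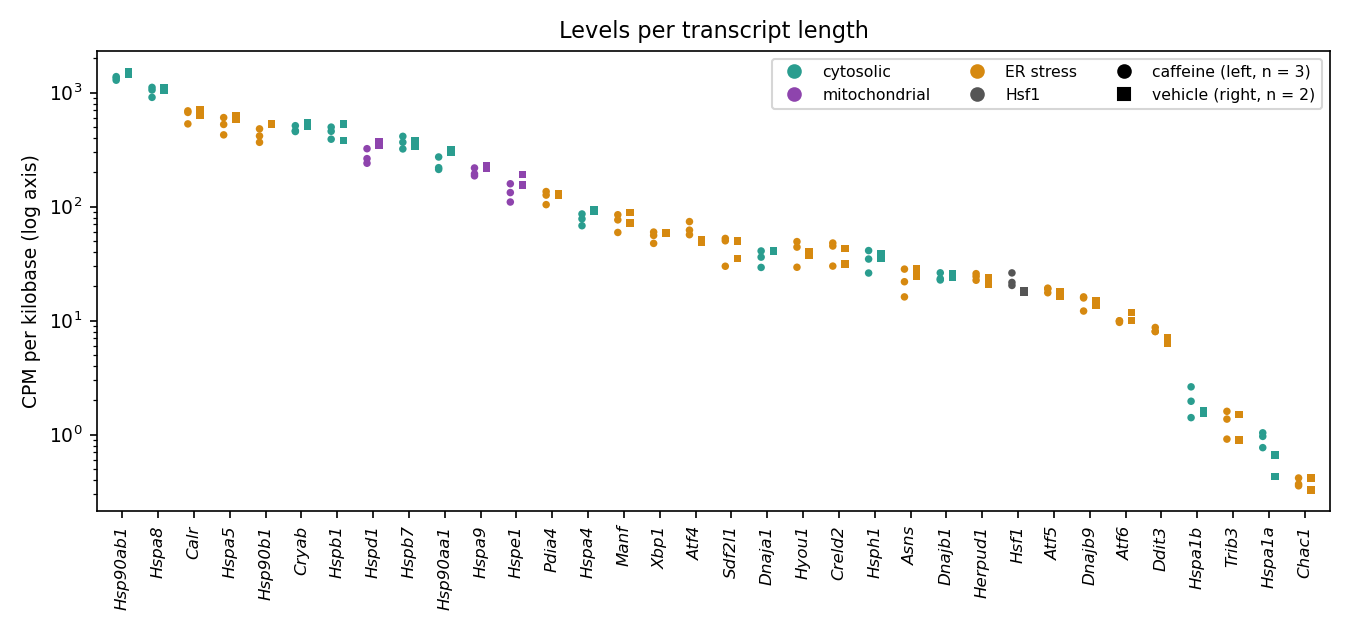
CPM per kilobase of transcript on a log axis for the 34 genes, ordered by level in the RefSeq table, with caffeine libraries as circles on the left (n = 3) and vehicle libraries as squares on the right (n = 2) of each gene, coloured by class. Hsp90ab1 and Hspa8 are highest, and Hspa1a and Chac1 are lowest, at 0.922 and 0.380 in caffeine libraries and 0.545 and 0.372 in vehicle libraries.

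Among cytosolic chaperones, Hsp90aa1, the stress-responsive HSP90 isoform (chr12:110691036-110696395, minus strand, mm10), had 695, 893 and 719 CPM in caffeine libraries, against 987 and 1042 CPM in vehicle libraries. Every caffeine library was below both vehicle libraries. Hsp90aa1 averaged 769 ± 108 CPM in caffeine libraries and 1015 ± 38.5 CPM in vehicle libraries (SD), a log2 fold change of -0.40 (SE 0.14, BH-adjusted p = 0.851). It was between -0.52 and -0.33 when any 1 library was left out. The constitutive isoform Hsp90ab1 (chr17:45567778-45573261, minus strand) had 3234, 3476 and 3374 CPM in caffeine libraries, against 3842 and 3621 CPM in vehicle libraries. Its groups did not overlap either, but its log2 fold change was -0.15 (SE 0.12). Hspa4, an HSP110-family nucleotide exchange factor of HSP70, had 314, 398 and 360 CPM in caffeine libraries, against 420 and 437 CPM in vehicle libraries, a non-overlapping difference of -0.26 (SE 0.13, BH-adjusted p = 0.982).

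The inducible HSP70 gene Hspa1a (chr17:34969359-34972156, minus strand) was the member with the largest fold change, from few counts. It had 3.07, 2.28 and 2.86 CPM in caffeine libraries (74, 53 and 63 counts), against 1.28 and 1.96 CPM in vehicle libraries (31 and 43 counts). All 3 caffeine libraries were above both vehicle libraries, with a log2 fold change of 0.76 (SE 0.32, BH-adjusted p = 0.949), which was 0.48 without vehicle replicate 1. Its neighbour Hspa1b (chr17:34956429-34959238, minus strand) had 3.95, 7.35 and 5.49 CPM in caffeine libraries, against 4.33 and 4.51 CPM in vehicle libraries. These overlapped, and the log2 fold change was 0.34 (SE 0.27), or 0.09 without caffeine replicate 2. The transcripts of the pair were 99.27% identical over 2197 aligned bases and their deposited counts were fractional in all 5 libraries, so how reads were divided between them is uncertain. Summed over the pair, a measure chosen after seeing the data that does not depend on this division, there were 7.02, 9.63 and 8.35 CPM in caffeine libraries, against 5.60 and 6.47 CPM in vehicle libraries. The summed groups did not overlap, and the log2 fold change was 0.47 (SE 0.21, BH-adjusted p = 0.956).

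The other HSP70-system genes differed less. Hspa8 had 2172, 2657 and 2522 CPM in caffeine libraries, against 2623 and 2527 CPM in vehicle libraries, a log2 fold change of -0.07 (SE 0.13), or 0.0084 without caffeine replicate 1. Its value depended on the annotation. In the authors' Ensembl gene table Hspa8 held 16.5% of its RefSeq counts and had 339, 384 and 510 CPM in caffeine libraries, against 366 and 346 CPM in vehicle libraries, a log2 fold change of 0.21 (SE 0.17). Counts of the 2 tables were within 10% of each other for 28 of the 34 genes. The other exceptions were Dnaja1 (51.5% of its RefSeq counts in the Ensembl table), Hspb1 (76.5%), Hsp90aa1 (76.9%), Hspd1 (77.1%) and Ddit3 (112%), each with the same sign of fold change in both tables, though Dnaja1 stood at -0.06 in the Ensembl table. How the authors' counting gave this difference was not tested. The J-domain co-chaperone Dnajb1, an activator of HSP70, had 69.8, 78.6 and 68.0 CPM in caffeine libraries and 72.0 and 76.6 CPM in vehicle libraries, which overlapped. Dnaja1, a J-domain co-chaperone of HSC70, had 202, 229 and 164 CPM in caffeine libraries and 228 and 230 CPM in vehicle libraries, and caffeine replicate 2 was within the vehicle range. Its log2 fold change of -0.20 (SE 0.15) in the RefSeq table was -0.08 without caffeine replicate 3. It overlaps Smu1 and Gm6297 on the other strand, and whether counting used strand is not given in the sources used here. Hsph1 (HSP105) had 99.3, 156 and 132 CPM in caffeine libraries and 133 and 147 CPM in vehicle libraries, so the caffeine libraries lay on both sides of vehicle, and its log2 fold change of -0.12 (SE 0.17) was 0.04 without caffeine replicate 1.

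The small heat shock proteins, which hold unfolding proteins and protect filaments in muscle, had overlapping groups in all 3 cases. Hspb7, a heart and muscle small heat shock protein, had 1143, 887 and 1014 CPM in caffeine libraries and 1038 and 938 CPM in vehicle libraries. Hspb7 overlaps Gm5506 and Gm5801 on the same strand, and how reads were divided between them is not given in the sources used here. Cryab (alpha-B crystallin) had 385, 391.6 and 433 CPM in caffeine libraries and 455 and 427 CPM in vehicle libraries. Hspb1 (HSP25) had 352, 413 and 449 CPM in caffeine libraries and 477 and 342 CPM in vehicle libraries. The vehicle libraries of Hspb1 were farther apart than any of its caffeine libraries. The log2 fold changes were 0.04, -0.13 and -0.02 for Hspb7, Cryab and Hspb1, with SE of 0.14, 0.12 and 0.16.

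Hsf1 (chr15:76477445-76500972, plus strand), whose protein is activated mainly after translation, had 41.0, 43.6 and 52.8 CPM in caffeine libraries, against 37.0 and 36.0 CPM in vehicle libraries. All 3 caffeine libraries were above both vehicle libraries, averaging 45.8 ± 6.21 CPM in caffeine libraries and 36.5 ± 0.713 CPM in vehicle libraries (SD). The log2 fold change was 0.33 (SE 0.15, BH-adjusted p = 0.957), and 0.21 without caffeine replicate 3. The highest library for Hsf1 was caffeine replicate 3. That library was the highest for none of the 12 cytosolic chaperones, and for 3407 of all 13829 tested genes. A link between Hsf1 and chaperone levels was not tested.

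The mitochondrial chaperonin genes Hspd1 (HSP60) and Hspe1 (HSP10) encode the barrel and the lid of the folding chamber of the mitochondrial matrix. They are transcribed in opposite directions on chromosome 1 from starts with 215 bases between them. Hspd1 (chr1:55077834-55087932, minus strand) had 581, 780 and 638 CPM in caffeine libraries, against 897 and 841 CPM in vehicle libraries. No caffeine library reached either vehicle library, with 666 ± 102 CPM in caffeine libraries and 869 ± 39.5 CPM in vehicle libraries (SD), a log2 fold change of -0.38 (SE 0.14, BH-adjusted p = 0.912). Hspe1 (chr1:55088148-55091317, plus strand) had 84.8, 123 and 103 CPM in caffeine libraries, against 148 and 119 CPM in vehicle libraries. Caffeine replicate 2 was above vehicle replicate 2, so these groups overlapped, and the log2 fold change was -0.37 (SE 0.16, BH-adjusted p = 0.949). Without vehicle replicate 1 it was -0.21 for Hspe1 and -0.34 for Hspd1, and without caffeine replicate 1 it was -0.24 for Hspe1 and -0.29 for Hspd1. Hspa9 (mortalin), the matrix HSP70 that pulls imported proteins across the inner membrane, had 567, 665 and 591 CPM in caffeine libraries and 699 and 657 CPM in vehicle libraries. Its groups overlapped narrowly, with a log2 fold change of -0.16 (SE 0.12).

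The stretch between the divergent Hspd1 and Hspe1 genes is shown in part, because it holds the heat shock element that both carry, and the Hsph1 window is shown beside it. Promoter windows of 250 bases before to 50 after the annotated start were taken from RefSeq (GRCm38.p6) and were held for 25 of the 34 genes. A heat shock element was defined as 3 five-base units in a row, NGAAN and NTTCN alternating in either order, on both strands. It was in 0.602% of all 32544 windows, and among module genes in those of Hspd1, Hspe1 and Hsph1. The definition allows no mismatch or gap, so a window without a match can still hold an imperfect element. The windows of Hspa1a, Hspa1b, Dnajb1 and Hspb1 had no match under it. Hspa8, Hsp90aa1, Hsp90ab1, Cryab and Hsf1 had no window to search. Hspd1 and Hspe1 hold the same element, at positions -90 to -71 from the Hspe1 start, printed on the Hspe1 strand (chr1:55088043-55088092, plus strand). Positions count from 0 at the annotated start. The element of Hsph1 is at positions 14 to 28 in the window shown (chr5:149636280-149636308, minus strand). From the other annotated Hsph1 start the same element is at positions 35 to 49. Capitals mark the element.
Hspe1 and Hspd1: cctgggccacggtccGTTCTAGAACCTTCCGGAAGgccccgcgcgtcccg
Hsph1: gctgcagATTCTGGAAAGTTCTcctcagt
The 3 genes with the element had log2 fold changes of -0.37, -0.38 and -0.12. A match in a window is a description of its letters.

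**Figure D4:**
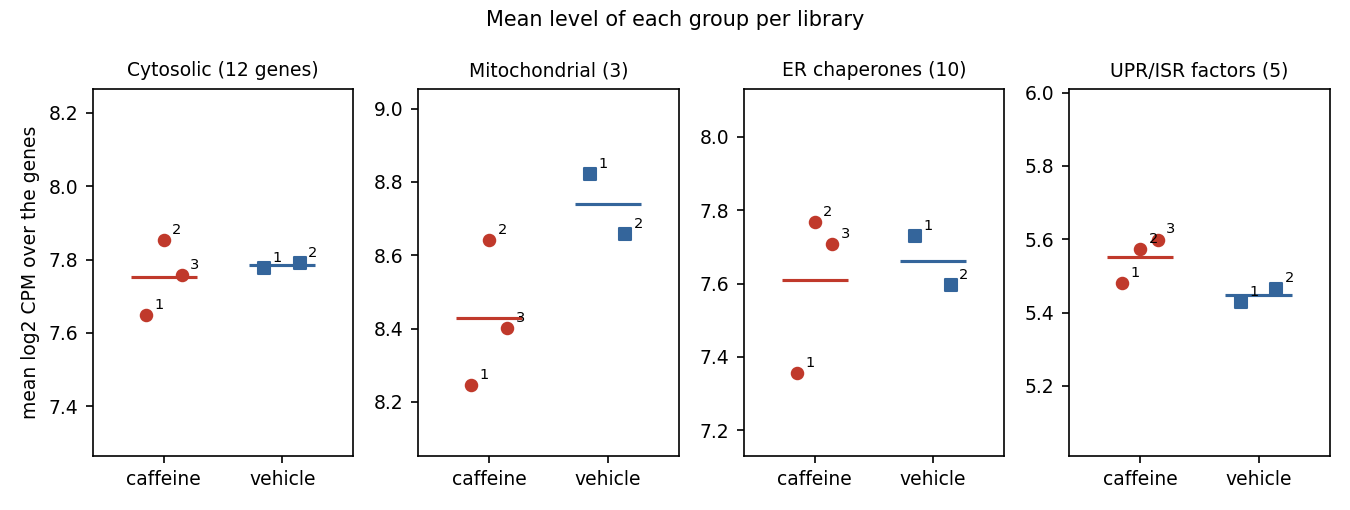
Mean log2 CPM over the genes of each group in each library, caffeine (circles, n = 3) left and vehicle (squares, n = 2) right, with replicate numbers and the mean as a line, all panels spanning 1 log2 unit. The mitochondrial panel has caffeine at 8.25, 8.64 and 8.40 and vehicle at 8.82 and 8.66; in the cytosolic panel the groups overlap.

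In the ER, Hsp90b1 (GRP94, the ER member of the HSP90 family, chr10:86690841-86705444, minus strand) had 1034, 1357 and 1175 CPM in caffeine libraries, against 1478 and 1489 CPM in vehicle libraries. It was below vehicle in all 3 caffeine libraries, at 1189 ± 162 CPM in caffeine libraries and 1483 ± 8.31 CPM in vehicle libraries (SD), a log2 fold change of -0.32 (SE 0.14, BH-adjusted p = 0.949), or -0.23 without caffeine replicate 1. Hspa5 (BiP, the ER HSP70 and the classical readout of the unfolded protein response, chr2:34772090-34776529, plus strand) had 1112, 1576 and 1372 CPM in caffeine libraries, against 1626 and 1515 CPM in vehicle libraries. Caffeine replicate 2 was within the vehicle range, and the log2 fold change was -0.22 (SE 0.15, BH-adjusted p = 0.999), or -0.09 without caffeine replicate 1.

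The remaining 8 ER chaperones and folding or degradation factors had overlapping groups, with log2 fold changes from -0.12 to 0.14. Calr had 1160, 1462 and 1509 CPM in caffeine libraries and 1533 and 1389 CPM in vehicle libraries. The disulfide isomerase Pdia4 had 249, 325 and 302 CPM in caffeine libraries and 312 and 303 CPM in vehicle libraries. In both, caffeine replicate 1 alone lay well below the other libraries, and without it the log2 fold changes were 0.02 for Calr and 0.03 for Pdia4. Hyou1 (GRP170), the nucleotide exchange factor of BiP, had 130, 195 and 218 CPM in caffeine libraries and 179 and 167 CPM in vehicle libraries. Manf, a secreted ER-resident factor, had 133, 190.5 and 172 CPM in caffeine libraries and 198 and 161 CPM in vehicle libraries. In Hyou1 the caffeine libraries lay on both sides of vehicle, and in Manf the vehicle libraries enclosed 2 of the caffeine libraries. The log2 fold changes of 0.07 for Hyou1 and -0.12 for Manf were 0.26 and 0.010 without caffeine replicate 1.

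Sdf2l1 and Creld2, both ER stress-inducible factors of the folding machinery, shared a pattern across the 5 libraries. Sdf2l1 had 33.2, 55.5 and 58.2 CPM in caffeine libraries and 55.4 and 38.6 CPM in vehicle libraries. Creld2 had 41.0, 61.5 and 65.4 CPM in caffeine libraries and 58.7 and 42.9 CPM in vehicle libraries. In both genes caffeine replicate 1 and vehicle replicate 2 were low and the other 3 libraries high, so the difference inside each group exceeded that between groups. The log2 fold changes of 0.06 for Sdf2l1 and 0.14 for Creld2 were 0.27 and 0.32 without caffeine replicate 1. Dnajb9 (ERdj4), a J-domain partner of BiP, had 39.7, 38.8 and 29.8 CPM in caffeine libraries and 33.8 and 37.0 CPM in vehicle libraries. Herpud1, a membrane protein of ER-associated degradation, had 44.1, 47.6 and 50.3 CPM in caffeine libraries and 40.8 and 46.4 CPM in vehicle libraries. Dnajb9 had its lowest value in caffeine replicate 3, unlike the other ER chaperone genes.

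The ER stress element, the sequence through which ATF6 acts on ER chaperone promoters, was searched as CCAAT, 9 bases of any kind and CCACG on both strands. It was in 0.12% of all windows and in those of 4 of the 8 ER chaperone genes with a window, shown because these 4 promoters share the element. The windows of Pdia4, Dnajb9, Sdf2l1 and Herpud1 had no match. The search allows no mismatch or other spacing, so a window without a match can still hold a variant element. Hyou1 and Manf had no window to search. Elements lie at positions -65 to -47 from the start in Hspa5 (chr2:34772010-34772058, plus strand), -162 to -144 in Calr (chr8:84847060-84847108, minus strand) and -126 to -108 in Creld2 (chr15:88819505-88819553, plus strand). Hsp90b1 holds a first copy at positions -212 to -194 (chr10:86705623-86705671, minus strand) and a second at -107 to -89 (chr10:86705518-86705566, minus strand). Capitals mark the element, which reads in reverse complement where it begins with CGTGG.
Hspa5: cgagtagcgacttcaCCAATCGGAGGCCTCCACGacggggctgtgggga
Hsp90b1, first copy: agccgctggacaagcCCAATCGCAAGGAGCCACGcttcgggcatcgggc
Hsp90b1, second copy: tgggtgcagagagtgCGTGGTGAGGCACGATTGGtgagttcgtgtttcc
Calr: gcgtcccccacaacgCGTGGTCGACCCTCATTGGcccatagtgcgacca
Creld2: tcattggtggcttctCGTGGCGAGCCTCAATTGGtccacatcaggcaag
The log2 fold changes of the 4 genes were -0.22 for Hspa5, -0.32 for Hsp90b1, -0.09 for Calr and 0.14 for Creld2. The core TGACGTGG, bound by XBP1 and ATF6, was in 0.682% of all windows and in 0 of the module's.

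Of the transcription factor genes, Atf4 (chr15:80255184-80257541, plus strand), the effector of the integrated stress response, had 97.7, 107 and 127 CPM in caffeine libraries, against 87.7 and 84.2 CPM in vehicle libraries. All 3 caffeine libraries were above both vehicle libraries, at 111 ± 15.1 CPM in caffeine libraries and 86.0 ± 2.52 CPM in vehicle libraries (SD). The log2 fold change was 0.36 (SE 0.14, BH-adjusted p = 0.924), and between 0.25 and 0.45 when any 1 library was left out. Ddit3 (CHOP, chr10:127290793-127296288, plus strand), a target of ATF4, had 7.14, 7.74 and 7.13 CPM in caffeine libraries, against 5.68 and 6.24 CPM in vehicle libraries. Its groups did not overlap either, with a log2 fold change of 0.30 (SE 0.20, BH-adjusted p = 0.999), from 172, 180 and 157 counts in caffeine libraries and 138 and 137 counts in vehicle libraries. Ddit3 overlaps Mars on the other strand, so its counts are uncertain. Atf5, a further factor of the same arm, had 34.3, 31.8 and 34.9 CPM in caffeine libraries and 32.7 and 29.4 CPM in vehicle libraries, which overlapped. Atf5 overlaps Nup62 on the other strand, and its counts lay mostly in a RefSeq form listed as non-coding, given below.

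Atf6, the gene of the membrane-bound sensor, had 72.2, 71.9 and 69.9 CPM in caffeine libraries, against 72.4 and 84.9 CPM in vehicle libraries. Its groups were apart by a margin smaller than the distance between the vehicle libraries, with a log2 fold change of -0.14 (SE 0.13). Xbp1, the target of the IRE1 nuclease, had 101, 127 and 119 CPM in caffeine libraries and 123 and 126 CPM in vehicle libraries, a log2 fold change of -0.11 (SE 0.13), or -0.02 without caffeine replicate 1. Caffeine replicate 2 was above both vehicle libraries.

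The module holds 3 further targets of ATF4. Asns, which makes asparagine, had 32.3, 43.8 and 56.6 CPM in caffeine libraries and 57.3 and 49.2 CPM in vehicle libraries, a log2 fold change of -0.27 (SE 0.21, BH-adjusted p = 0.999). Its caffeine libraries were widely spread, and the value was -0.09 without caffeine replicate 1 and -0.49 without caffeine replicate 3. Trib3, a pseudokinase induced by ATF4 and CHOP, had 3.24, 1.85 and 2.77 CPM in caffeine libraries and 3.05 and 1.82 CPM in vehicle libraries, a log2 fold change of 0.10 (SE 0.33). Chac1 had 14, 14 and 15 counts in caffeine libraries and 13 and 15 counts in vehicle libraries, a log2 fold change of 0.03 (SE 0.42), at which depth only large differences could be seen. All 3 had overlapping groups. Their windows are shown because each of them held the amino acid response element through which ATF4 acts, searched as TGATG, any base and AA on both strands. That motif was in 3.91% of all windows, and in the module also in Herpud1. It lies at positions -23 to -16 in Asns (chr6:7693210-7693247, minus strand), -193 to -186 in Chac1 (chr2:119351034-119351071, plus strand), 14 to 21 in Trib3 (chr2:152344028-152344057, minus strand) and -112 to -105 in Herpud1 (chr8:94386302-94386339, plus strand). Capitals mark the motif, in reverse complement in all but Asns.
Asns: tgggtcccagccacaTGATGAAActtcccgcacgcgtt
Chac1: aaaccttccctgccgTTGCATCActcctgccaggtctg
Trib3: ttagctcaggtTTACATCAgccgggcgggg
Herpud1: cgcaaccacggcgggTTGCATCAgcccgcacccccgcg

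IRE1 cuts 26 bases out of the Xbp1 mRNA and so joins the reading frame that encodes the active factor. Estimated transcript counts give the shares of the 2 forms, and IRE1 activity itself was not measured. RefSeq holds the 2 forms as separate transcripts with the same ends. The segment lies at bases 818 to 843 of the 2129-base GENCODE transcript on chromosome 11, and its removal lengthens the open reading frame to 371 codons, against 267 codons with it. It is shown in capitals with 12 bases on each side; the cut borders share the form CNGCAG.
Xbp1: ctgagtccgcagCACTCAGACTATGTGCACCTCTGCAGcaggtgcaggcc
The spliced form (NM_001271730) took 16.98%, 29.7% and 17.7% of Xbp1 counts in caffeine libraries, against 21.6% and 29.6% in vehicle libraries. The 95% Wilson intervals, for counting error only, were 15.6% to 18.5%, 28.1% to 31.4% and 16.3% to 19.2% in caffeine libraries, against 20.2% to 23.1% and 27.95% to 31.4% in vehicle libraries. The groups overlapped, as caffeine replicate 2 had the highest share and the libraries within a group differed by more than counting error. The spliced form had a log2 fold change of -0.33 (SE 0.33, BH-adjusted p = 0.929) and the unspliced form NM_013842 one of -0.03 (SE 0.12). edgeR's transcript usage test gave Xbp1 an adjusted p of 0.770, and 0.298 without caffeine replicate 2. Both values rest on the authors' division of reads between forms that differ by these 26 bases.

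The 3 other members with several RefSeq transcripts were Hspa5, Dnaja1 and Atf5; 30 of the 34 had only 1. No transcript of any member passed FDR 0.05, and of 18418 transcripts tested in all none did (0%), with 1355 at an unadjusted p under 0.05 (7.36%). No member passed the usage test, which 89 of 2897 genes passed (3.07%) and in which 17.7% had an unadjusted p under 0.05. In Hspa5, NM_001163434 took 66.4%, 61.1% and 66.8% of the counts in caffeine libraries, against 68.5% and 69.5% in vehicle libraries. In Dnaja1, NM_001164672 took 46.7%, 46.4% and 41.8% in caffeine libraries, against 53.7% and 54.1% in vehicle libraries. Both shares were lower in all 3 caffeine libraries, as were the CPM of these transcripts. Shares did not overlap for 29.5% of the 7538 transcripts of such genes, and CPM for 23.3% of all transcripts. The log2 fold changes of the 2 transcripts were -0.31 (SE 0.14, BH-adjusted p = 0.701) and -0.45 (SE 0.18, BH-adjusted p = 0.649), and the adjusted p of usage was 0.651 for Hspa5 and 0.524 for Dnaja1. In Atf5 a single form, NR_033136, held at least 97.8% of the counts in every library. RefSeq lists that form as non-coding, and the coding form NM_030693 held at most 2.2%, in vehicle replicate 1.

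**Figure D5:**
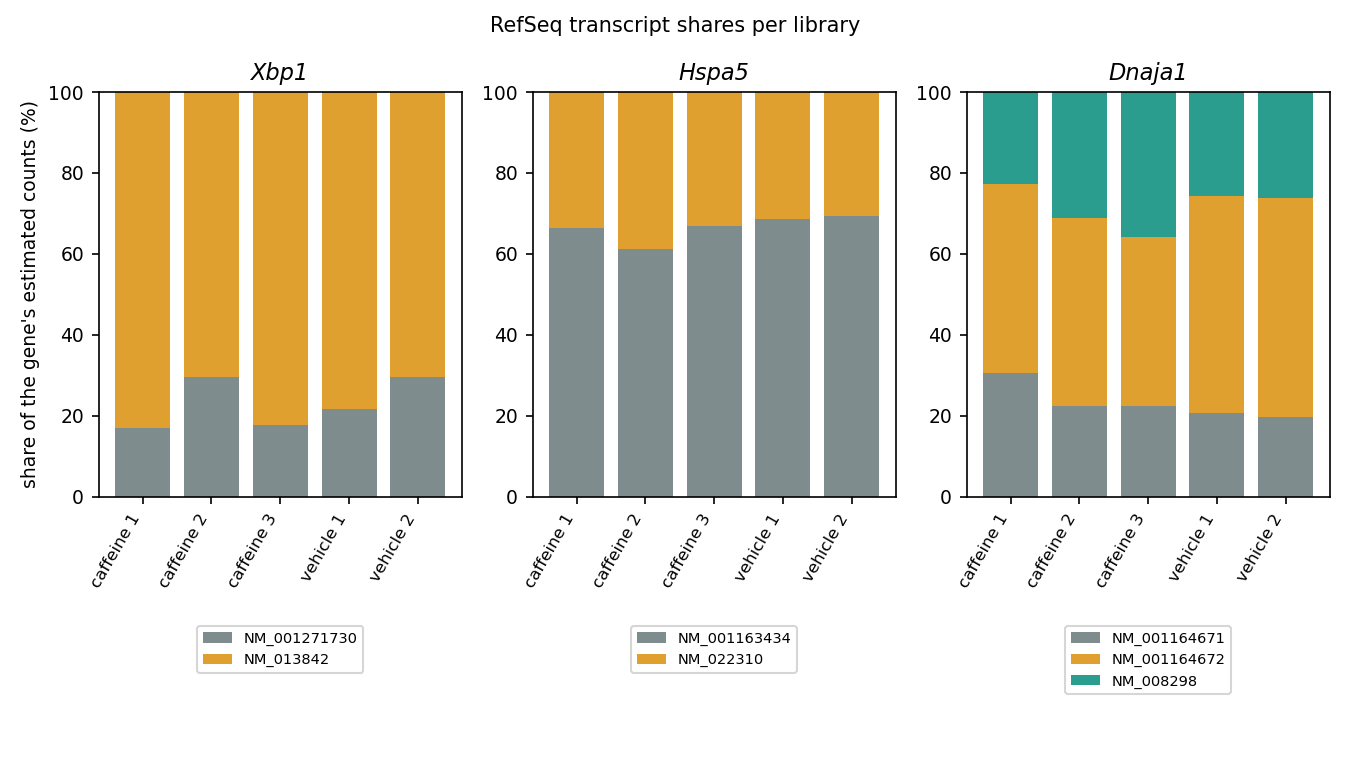
Share of each gene's estimated counts per RefSeq transcript, in percent, stacked for the 3 caffeine libraries (left) and 2 vehicle libraries (right), for Xbp1, Hspa5 and Dnaja1. The spliced Xbp1 form, drawn first from the bottom, is at 16.98% to 29.7% in caffeine libraries and 21.6% to 29.6% in vehicle libraries; the form of Dnaja1 in the middle is lower in all caffeine libraries.

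Other genes of the same pathways, in 6 lists of 141 genes, gave the wider setting; 137 were tested, none passed FDR 0.05, and 78 were negative and 59 positive with a median log2 fold change of -0.04. Groups did not overlap for 26 of them (19%), with caffeine above in 5 and below in 21, against 20.4% of all tested genes, 11.2% above and 9.27% below. The TRiC chaperonin and prefoldin, which fold actin and tubulin in the cytosol, were the list in which no gene was positive. All 13 of its tested genes were negative, with a median of -0.24, and 7 had all caffeine libraries below vehicle. Cct6a, a TRiC subunit, had 353 ± 37.4 CPM in caffeine libraries and 430 ± 2.05 CPM in vehicle libraries (SD), a log2 fold change of -0.29 (SE 0.13, BH-adjusted p = 0.949). Cct5, another subunit, and Pfdn1, a prefoldin subunit, stood at -0.28 and -0.29. All 13 stayed negative with any 1 library left out, and the median was then between -0.32 and -0.15, the smallest without vehicle replicate 1. The per-library mean log2 CPM of this list was 7.28, 7.48 and 7.33 in caffeine libraries, against 7.67 and 7.52 in vehicle libraries. The groups were apart here and in the mitochondrial chaperones, but by less than the within-group SD of 0.10 and 0.18. The nearest libraries, caffeine replicate 2 and vehicle replicate 2, were at 7.48 and 7.52 here. In the mitochondrial chaperones they were at 8.64 and 8.66. The summed heart muscle markers, at the values given above, were also lower in all caffeine libraries, with 7 of the 10 negative, and their part was not tested.

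Of the 36 other cytosolic HSP70, HSP90 and J-domain factors, 24 were negative (median -0.07). That was 18 of 36 with a median of -0.0027 without vehicle replicate 1, and 28 with a median of -0.15 without vehicle replicate 2. The HSP70 nucleotide exchange factor Bag1 had the smallest p, with 120 ± 6.58 CPM in caffeine libraries and 144 ± 13.6 CPM in vehicle libraries (log2 fold change -0.27, SE 0.13), followed by the HSP70-HSP90 adaptor Stip1 at -0.24 and the HSP90 co-chaperone Ptges3 at -0.20. Of the 15 other mitochondrial chaperones and proteases 9 were negative (median -0.06), led by the inner membrane protease Yme1l1 at -0.18, the matrix HSP70 exchange factor Grpel1 at -0.15 and the intermembrane space protease Htra2 at 0.14. Their median was 0.05, with 5 negative, without vehicle replicate 1 and -0.15, with 12 negative, without vehicle replicate 2.

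Of the 22 other ER chaperones and oxidoreductases 13 were negative (median -0.04), a median that was -0.0072 without caffeine replicate 1 and -0.13, with 16 negative, without vehicle replicate 2. Canx, the membrane-bound partner of Calr, had 975 ± 101 CPM in caffeine libraries and 1153 ± 77.3 CPM in vehicle libraries (log2 fold change -0.24, SE 0.13), and Pdia3 and the folding sensor Uggt1 stood at -0.23 and -0.21. Of the 24 genes of ER-associated degradation and stress sensing, 14 were positive (median 0.02), and 12 were positive without caffeine replicate 3 (median -0.0026). The ubiquitin ligase gene Syvn1 (HRD1) had 56.5 ± 6.28 CPM in caffeine libraries and 44.1 ± 2.46 CPM in vehicle libraries, a log2 fold change of 0.36 (SE 0.14, BH-adjusted p = 0.941). Eif2ak3, the gene of PERK, had 24.0 ± 0.934 CPM in caffeine libraries and 19.2 ± 1.88 CPM in vehicle libraries, a log2 fold change of 0.32 (SE 0.15, BH-adjusted p = 0.960), and the segregase Vcp stood at -0.30. Of the 27 tested other integrated stress response genes, 18 were positive (median 0.05). Eif2ak4, the gene of the amino acid sensor kinase GCN2, had 25.1 ± 0.352 CPM in caffeine libraries and 20.2 ± 2.75 CPM in vehicle libraries (log2 fold change 0.31, SE 0.15). Eif2s1, which encodes the subunit these kinases phosphorylate, stood at -0.26 and the double-stranded RNA sensor kinase Eif2ak2 at -0.24. The median of this list was 0.11 without vehicle replicate 1, -0.04 without vehicle replicate 2 and -0.02 without caffeine replicate 3.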

How the data were processed

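The authors deposited tables of estimated counts per RefSeq gene, RefSeq transcript and Ensembl gene, unscaled between libraries, per the file headers. TopHat, Partek, mm10 and GRCm38 are listed, without versions, per the submitters' processing notes. Whether counting used strand is not given in the sources used here. Estimated counts were rounded to whole numbers, filtered with filterByExpr and scaled by TMM (factors 0.970 to 1.02). Caffeine was compared with vehicle by edgeR 4.0.16's two-sided quasi-likelihood test (robust, R 4.3.3), with p adjusted by Benjamini-Hochberg over all features of a table. Standard errors (SE) were derived as the absolute log2 fold change divided by the root of the F statistic. P-values measure the spread between these pools. Transcript usage was tested with edgeR's diffSpliceDGE F test. The module, the lists and the classes were chosen with earlier results of these data known. Every member is accounted for, and each pathway list is represented by its 3 genes with the smallest p. Ends of genes are the deposited stop minus 1, since 5907 of the stops with a RefSeq start lay 1 base past the RefSeq end. Transcript lengths came from GENCODE M21 and promoters from RefSeq. DESeq2 1.42.0, limma-voom (limma 3.58.1), other scaling and filters, the Ensembl table, a replicate block and leaving out each library were alternatives. No table held a column of values without a sample.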

Additional observations from a re-analysis of the deposited data

How the results depend on the processing

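No member passed FDR 0.05 under any alternative run: RLE or no scaling, no low-count filter, DESeq2, limma-voom, the Ensembl table, the replicate block, FDR 0.1 or leaving out any 1 library. Of the 34 members, 20 kept 1 sign under all 12 refits. Genes past FDR 0.05 over the whole table were 1, but 6 with no filter, 18 with DESeq2, 2 in the Ensembl table and 0 to 18 with 1 library left out. Genes with changed transcript usage were 89, but 28 with the Simes adjustment and 15 to 53 with 1 library left out; transcripts were 0, and 0 to 1 with 1 left out. The replicate number was also used as a block, although the numbers pair only 2 samples per group and their deviations correlated at -0.02 and 0.13. Deviations of caffeine replicate 3 and vehicle replicate 1, which share no number, also correlated at 0.13. With 2 vehicle libraries, deviations from their mean are equal and opposite, so these correlations depend on each other. They cannot decide whether the replicate numbers mark a pairing. Caffeine replicate 3 has no vehicle partner, so it adds nothing to the blocked contrast. The replicate block gave 52 genes, 9 transcripts and 3 usage genes past FDR 0.05, an ER stress median of -0.11, and log2 fold changes of -0.12 for Hyou1, -0.11 for Sdf2l1 and -0.035 for Chac1. The ER stress median ran from -0.11 to 0.027 with 1 library left out, and was -0.01 in the Ensembl table. Signs also turned in the Ensembl table for Hspa8 (0.21) and Chac1 (-0.061), and with no scaling for Dnajb1 (0.017) and Hspb1 (0.045). With 1 library left out, signs turned for 13 members: Hsph1 (-0.28 to 0.039), Hspa8 (-0.13 to 0.0084), Hspb1 (-0.26 to 0.24), Hspb7 (-0.059 to 0.13), Calr (-0.18 to 0.024), Pdia4 (-0.15 to 0.030), Hyou1 (-0.089 to 0.26), Dnajb9 (-0.044 to 0.15), Sdf2l1 (-0.21 to 0.34), Creld2 (-0.094 to 0.38), Manf (-0.29 to 0.033), Trib3 (-0.24 to 0.52) and Chac1 (-0.14 to 0.18). The cause was not tested. With 2 vehicle pools, differences the size of those in Hsp90aa1 or Atf4 could not be told from the spread between pools after adjustment.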
